A study of Mus musculus with 45 samples.

Results

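EHMT2-dTAG mouse embryonic stem cells (mESCs) that had received the degrader dTAG-13 for 24 h were compared with cells that had received the solvent DMSO for 24 h, in order to describe the first changes in RNA after loss of EHMT2. These 6 libraries, 3 per group, were taken by their labels from the 45 libraries of the series, and all genes and repeat families that passed a filter on low counts were described. In both groups the cells were KH2 mESCs (strain BL6/129) that carried, on both alleles of Ehmt2, a degron (FKBP12F36V), HA tags and an mCherry reporter at the stop codon. They grew in serum and LIF on mouse embryonic fibroblast feeders. Each group held the same 3 clones (E2-17, E2-20 and E2-K71) of this cell line, so the libraries of a group are clones and not separate derivations. Poly-A RNA was sequenced with a stranded kit. A second pair of groups, DMSO and dTAG-13 for 7 d in the same clones, shared no library with the 24 h groups. It is not independent of them, since it came from the same clones and entered the same fit, where it shares the estimate of the spread.

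EHMT2 (also known as G9a) works in a complex with its partner EHMT1. The complex places mono- and dimethylation on lysine 9 of histone H3 (H3K9me2), a mark of silent chromatin outside constitutive heterochromatin. In mESCs it is known to hold down genes of the 2-cell embryo, the MERVL endogenous retrovirus that accompanies them, and genes of the germline. A few cells of an mESC culture enter a state that resembles the 2-cell embryo and are called 2-cell-like cells (2CLC).

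Because the degrader acts on the protein, the Ehmt2 transcript does not report its loss. Ehmt2 had 583, 592 and 672 normalized counts in the DMSO libraries and 570, 577 and 679 in the dTAG libraries, and its partner Ehmt1 had 830, 889 and 878 against 904, 904 and 864. Normalized counts are reads divided by the size factor of the library, and the libraries of each group are given in the order 1, 2, 3 of falling size factor, so that an equal number in different groups does not mean an equal clone. The ranges of both genes overlapped between the groups.

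The 6 libraries held 12475000 to 17232000 reads in genes (to the nearest 1000). Summed over 5 mESC markers (Pou5f1, Sox2, Nanog, Esrrb, Zfp42) the level was 38289 to 48142 with DMSO and 36909 to 42281 with dTAG, and 0 were called. The 10 markers of feeder fibroblasts summed to 2785 to 4053 with DMSO and 2874 to 6146 with dTAG, with 0 of 8 tested called. Lum and Dcn were too low to test, and Dcn had 28.1, 0 and 33.4 counts with DMSO and 3.38, 0 and 0 with dTAG. The 5 primitive endoderm markers spanned 151 to 314 and 118 to 743 (0 called), and 4 trophoblast markers 14.1 to 30 and 18.6 to 26.4 (0 of 2 tested called). In bulk RNA fewer cells of a kind and less RNA per cell cannot be told apart. The DMSO libraries of 24 h were less alike than those of the other groups. Across 13744 genes the correlation of log2 levels was 0.969, 0.968 and 0.939 between the DMSO 24 h libraries and 0.980 to 0.993 between the dTAG 24 h libraries, and with the DMSO libraries of 7 d it was 0.962 to 0.969 for DMSO library 1, 0.986 to 0.993 for library 2 and 0.939 to 0.948 for library 3. Weights estimated by limma were 2.38 for library 1, 0.295 for library 2 and 0.338 for library 3. They compare a library only with the others of its own group, and their estimate did not fully converge. Which of the 3 is the better control was not tested. Genes that libraries 1 and 3 shared against all others included Xist (306, 0 and 143 counts with DMSO 24 h, at most 5.13 in each other library) and Serpina3n (40.3, 0 and 56.0, at most 0.855 elsewhere). Library 3 also had a low level of transcripts with a GC content under 42% (median deviation -0.47 on the log2 scale, 1651 genes). The main counts are therefore also given without DMSO libraries 1 and 3 and against the 3 DMSO libraries of 7 d, both chosen after the data were seen. With library 2 alone the control arm is 1 library, which is assumed to vary like the other groups, so its calls and adjusted p-values carry no spread of their own and the log2 differences are the firmer values. Whether these libraries account for the results that move with them was not tested.

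The largest response to 24 h of dTAG was upward. A gene was called when limma, fitted to log2(normalized count + 1) of the 12 time course libraries, gave a Benjamini-Hochberg adjusted p under 0.05 and at least a 2-fold change. Of 19077 genes tested, 405 were called higher (2.12%) and 103 lower (0.54%), together 2.66%. With the 6 libraries of 24 h fitted alone, the counts were 102 and 10. The median of all genes was 0.02 on the log2 scale. Genes that are raised in 2CLC anyway were separated with the sorted cells of the same series. These cells came from a derived EHMT2-dTAG line that carried a MERVL-GFP reporter, and they were sorted on that reporter. Their DMSO treatment lasted longer than 24 h and less than 7 d. The class was defined as genes with at least 4 times the mean in GFP-positive (2CLC) over GFP-negative DMSO cells. This 2CLC class held 934 of the 19077 genes tested. It held 258 of the 405 higher genes and 6 of the 103 lower genes, so 27.6% of the class was called higher and 0.642% lower. Outside it 147 genes rose (0.81%) and 97 fell (0.535%). With DMSO library 2 as the sole control, 97 genes (0.508%) were called higher and 5 (0.0262%) lower, and against the DMSO libraries of 7 d 231 (1.21%) and 3 (0.0157%). Of the 258 genes of the 2CLC class 78 and 177 kept their call under these controls, of the other 147 genes 13 and 25, and of the 103 lower genes 1 and 2. The 258 genes were still at a median of 2.17 and 2.58 with all 258 above 0 under both controls. With single libraries left out, the counts were 245 and 12 without DMSO library 1, 1014 and 391 without DMSO library 2, 277 and 47 without DMSO library 3, 163 and 17 without dTAG library 1, and 225 and 46 without dTAG library 3.

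**Figure D1:**
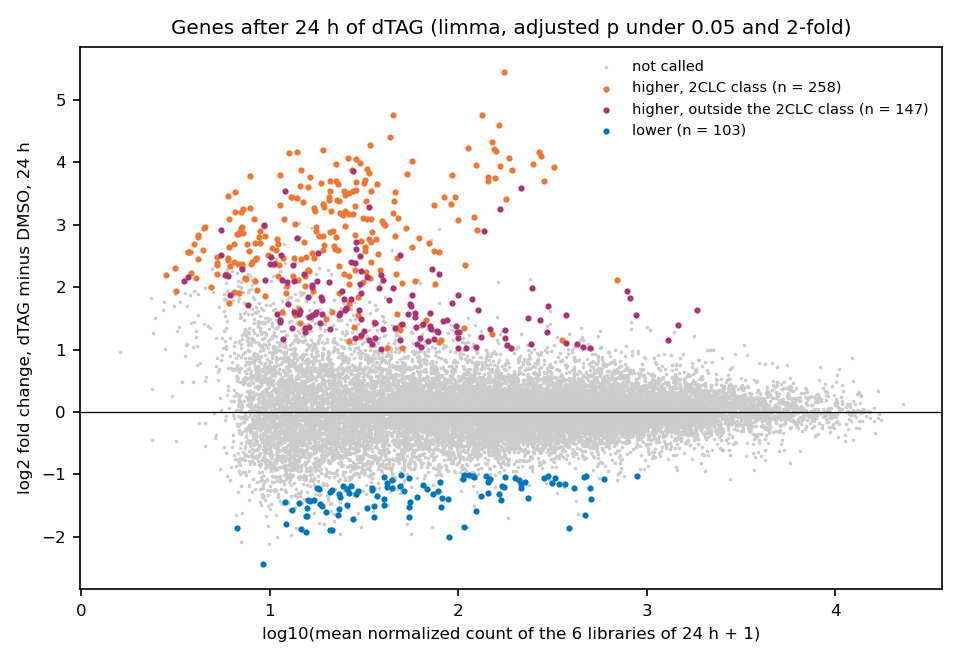
Each point is 1 of 19077 genes, with the mean level of the 6 libraries of 24 h on a log10 axis and the log2 fold change of dTAG over DMSO on the other axis; called genes are coloured by class. The 258 higher genes of the 2CLC class (orange) reach 5.46, the 147 other higher genes (purple) reach 3.87 and the 103 lower genes (blue) lie between -1.0 and -2.44.

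Within the 2CLC class the median change of the called genes was 2.81, or 2.79 with 13 genes that had no read with DMSO set to their bound of 3 counts over the group. Usp17lb, one of a multi-copy family of deubiquitinases (chromosome 7, 104840257 to 104842603), had 12.2, 8.08 and 2.38 counts with DMSO and 379, 209 and 429 with dTAG. It rose by 5.46 (SE 0.46, limma adjusted p = 0.000113), and no dTAG library overlapped a DMSO library. Gm7942 (4.76), Usp17la (4.76) and Gm21312 (4.60) followed. Of the 24 2C markers tested 19 rose and 0 fell, with a median of 3.43, or 1.94 against DMSO library 2 alone. Their summed level was 1212, 1795 and 1368 with DMSO and 5945, 3554 and 5817 with dTAG. Of this sum Dppa4 held 643, 700 and 803 with DMSO and 602, 486 and 663 with dTAG. Dppa4 was the single marker that differed downwards (-0.30), and it was not in the 2CLC class. Duxf3, a copy of the Dux transcription factor that stands at the head of the 2C programme, had 9.38, 5.05 and 7.15 counts with DMSO and 22, 13.7 and 18.4 with dTAG, a difference of 1.23 that did not pass (adjusted p = 0.109). At 7 d 243 of the 258 genes (94.2%) were called higher too, where 3.73% of all genes were.

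Pseudogenes made up 80 of the 405 higher genes and 3 of the 103 lower genes, out of 3216 tested. Their shares of 2.49% higher and 0.0933% lower compare with 2.12% and 0.54% of all genes, so pseudogenes as a whole rose about as often as other genes. A pseudogene is a copy of a gene that has lost its coding capacity, either a retrotransposed copy of an mRNA (processed) or a duplicate (unprocessed), and 36 of the 80 were processed and 44 unprocessed. All but 1 of the 80 belonged to the 2CLC class. There 79 of 210 pseudogenes tested were called higher (37.6%), beside 27.6% of all genes of the class. Outside it 1 was higher and 3 were lower of 3006. The exception, Gm11914, had 40.3, 73.7 and 23.8 counts with DMSO and 125, 90.7 and 137 with dTAG (1.46, adjusted p = 0.024), which did not exceed the 105 to 138 of the DMSO libraries of 7 d. The change of the 80 ranged from 1.25 to 4.02 (median 2.92, or 2.89 with 5 genes at their bound). No dTAG library of any of them overlapped a DMSO library of 24 h (12.8% of all genes in this direction), which the choice by the same libraries largely fixes. With DMSO library 2 alone 32 kept their call, and against the DMSO libraries of 7 d 60 did, at medians of 2.27 and 2.71 with 80 and 79 of the 80 above 0. Reads that fit several copies were placed at random by the authors, so a single pseudogene's value is uncertain and the summed level of a family is the firmer quantity. The alignment was also unspliced, so a read across an exon junction of a parent mRNA could fit a processed copy but not the parent gene. Whether such reads added to the counts of the 36 processed pseudogenes was not tested.

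The largest group were pseudogenes of Obox4, a homeobox gene of the oocyte and 2-cell embryo. All 19 that could be tested rose, by 2.77 to 3.89, and all 19 lie on chromosome 7 between 14767725 and 15693360. Their summed level was 89.1, 90.9 and 48.9 with DMSO and 1028, 653 and 1062 with dTAG, a ratio of means of 12.0. All 3 dTAG libraries were thus above every DMSO library by a wide margin. At 7 d the same sum was 62.3, 29.6 and 91.0 with DMSO and 836, 776 and 907 with dTAG, a ratio of 13.8, so that the dTAG level at 7 d was 0.919 of that at 24 h. The other 61 higher pseudogenes differed in level between the times. Their sum was 496, 842 and 370 with DMSO and 4022, 2431 and 3956 with dTAG at 24 h (ratio 6.09), and 751, 536 and 851 against 8104, 10229 and 9189 at 7 d (ratio 12.9), which put the dTAG level at 7 d at 2.64 times that at 24 h. Tested gene by gene in limma, the change at 7 d exceeded that at 24 h for 4 of the 61 and for 0 of the 19, where the difference passed for 2.65% of all genes in either direction. Whether the 2 groups of pseudogenes differ in this from each other was not tested.

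**Figure D2:**
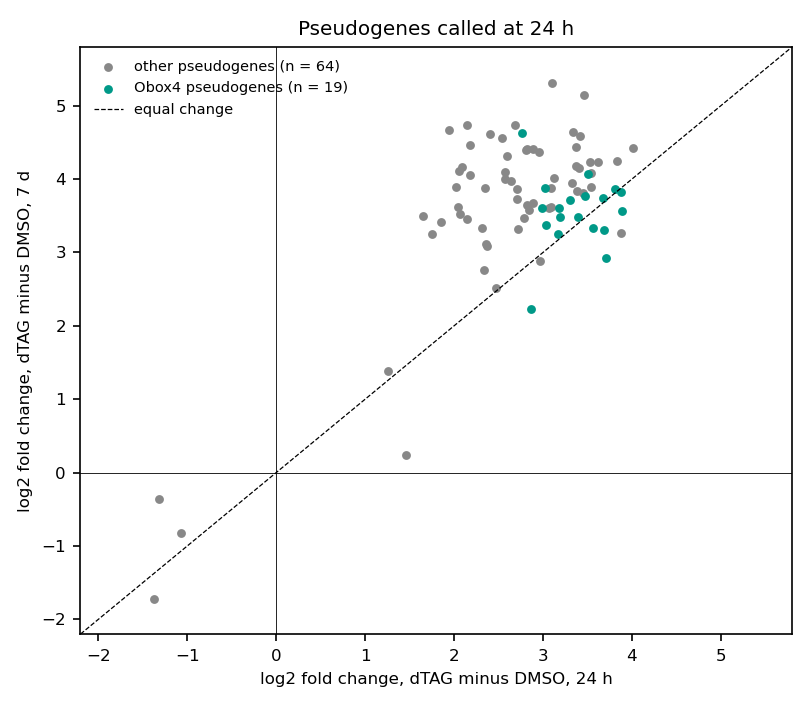
Each point is 1 of the 83 pseudogenes called at 24 h, with the log2 fold change of dTAG over DMSO at 24 h on the horizontal axis and at 7 d on the vertical axis; the dashed line marks equal change. The 19 Obox4 pseudogenes (green) scatter along the line and most of the other higher pseudogenes (grey) lie above it, with the 3 lower pseudogenes at the bottom left.

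Other higher pseudogenes also lay in runs, among them 8 on chromosome 18 within 17.2 kb. On chromosome 7 between 50940546 and 51176537 there were 8, among them Gm21037, the pseudogene with the largest change (2.81, 19.2 and 2.38 counts with DMSO, 130, 83.3 and 98.5 with dTAG, a rise of 4.02, SE 0.59, adjusted p = 0.003). On chromosome 5 there were 8 between 93694994 and 95605308, on chromosome 12 there were 6 between 87480108 and 88287069, and on chromosome 10 there were 4 within 46.7 kb. The 3 lower pseudogenes were Gm7972, Gm12203 and Slc2a4rg-ps. Gm7972 had 511, 244 and 271 counts with DMSO and 110, 136 and 128 with dTAG, a fall of 1.37 (SE 0.24, adjusted p = 0.008), and fell by 1.73 at 7 d too. Gm12203 (-1.32) and Slc2a4rg-ps (-1.06) were not called at 7 d (-0.35 and -0.83).

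The 147 higher genes outside the 2CLC class changed less (median 1.60) than the 258 within it (median 2.81). Against the DMSO libraries of 7 d 25 of the 147 and 177 of the 258 kept their call. The median of the 147 was 1.04 against library 2 alone and 0.83 against the DMSO libraries of 7 d. For the 258 these medians were 2.17 and 2.58. In 115 of the 147 the DMSO library nearest to the dTAG libraries was library 2. In 96 of the 147 every dTAG library lay above all 6 DMSO libraries of both times, which 5.05% of all genes did. The choice by the 24 h libraries fixes part of this. Of the 2433 genes whose 24 h groups did not overlap in this direction, 963 lay above all 6. At 7 d 54 (36.7%) were called higher again and 3 were called lower, among them 1500009C09Rik and Ascl2. Of all genes 3.73% were called higher and 3.68% lower at 7 d. On the X chromosome 24 of 770 genes rose (3.12%, against 2.12% of all genes) and 4 fell (0.519%, against 0.54%), and whether these shares differ was not tested.

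Of these genes 13 kept their call against DMSO library 2 alone, and they span several tissues and functions. Nlrp14, an NLR gene of the oocyte (chromosome 7, 107166990 to 107198102), had 22.5, 29.3 and 22.6 counts with DMSO and 84.6, 69.6 and 101 with dTAG, and rose by 1.73 (SE 0.21, adjusted p = 0.000709). Samd7, a sterile alpha motif gene of photoreceptors (chromosome 3, 30746293 to 30767174), had 2.81, 2.02 and 9.54 counts against 34.7, 16.9 and 36.8, and rose by 2.54 (SE 0.50, adjusted p = 0.013). For both genes the groups lay well apart, and both were called at 7 d too (2.61 and 4.99). Krt13, a keratin of stratified epithelium (chromosome 11, 100117327 to 100121566), had 9.38, 9.09 and 4.77 counts against 45.7, 39.0 and 47.6, a rise of 2.41 (adjusted p = 0.000921), and Ttc29, a component of the sperm flagellum, had 31.0, 27.3 and 19.1 against 80.4, 97.1 and 76.8, a rise of 1.70 (adjusted p = 0.003). Lcp1, an actin-bundling protein of leukocytes, rose by 2.08, Mrvi1 by 2.48 and Plet1, a surface marker of progenitor cells, by 1.08, and all 3 rose at 7 d. In contrast, Foxn4, a forkhead factor of retinal and spinal progenitors, had 100, 194 and 137 counts with DMSO and 503, 442 and 413 with dTAG at 24 h (1.69, adjusted p = 0.001). At 7 d it had 203, 202 and 292 against 252, 211 and 307 (0.15, adjusted p = 0.70), and the difference of the effects passed the test. The same was true of Slc43a3 (1.28 at 24 h, 0.22 at 7 d). Snap91 (1.19 and 0.25), Sh2d4a (1.57 and 0.55) and Cap2 (1.62 and -0.01) were not called at 7 d, while their difference between the times did not pass.

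The largest changes outside the 2CLC class were led by genes whose DMSO libraries disagreed. Nxf3, an X-linked mRNA export factor of the testis, had 0, 15.2 and 1.19 counts with DMSO and 53.3, 35.9 and 54.1 with dTAG. It rose by 3.87 (SE 0.73, adjusted p = 0.011), 1.57 against library 2 alone (adjusted p = 0.16), and reached 4.54 at 7 d. Lyz2, lysozyme of macrophages, had 10.3, 204 and 8.34 counts with DMSO and 409, 443 and 209 with dTAG, with 212 to 243 in the DMSO libraries of 7 d. Its rise of 3.59 (adjusted p = 0.029) was 0.72 against library 2 and -0.39 at 7 d, and the lowest dTAG library did not exceed the DMSO libraries of 7 d. Cavin2 (15.0, 147 and 8.34 against 283, 220 and 147), Ctss, a lysosomal protease (0, 6.06 and 0 against 19.5, 13.7 and 10.8), and the dopamine receptor Drd1 (1.88, 11.1 and 0 against 23.7, 24.3 and 17.3) had the same shape, high in library 2 and low in libraries 1 and 3. Of the 12 genes with the largest change, library 2 was the DMSO library nearest to dTAG in 10. Others of the 12 held their direction over time. Spink10, a protease inhibitor (3.54, and 3.15 at 7 d), Tgtp1, an interferon-induced GTPase (2.72 and 3.91), and Syt4, a synaptotagmin (2.62 and 1.45), were called at both times. Tgtp1 had 1.88, 7.07 and 9.54 counts with DMSO and 38.9, 17.9 and 92.0 with dTAG at 24 h.

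**Figure D3:**
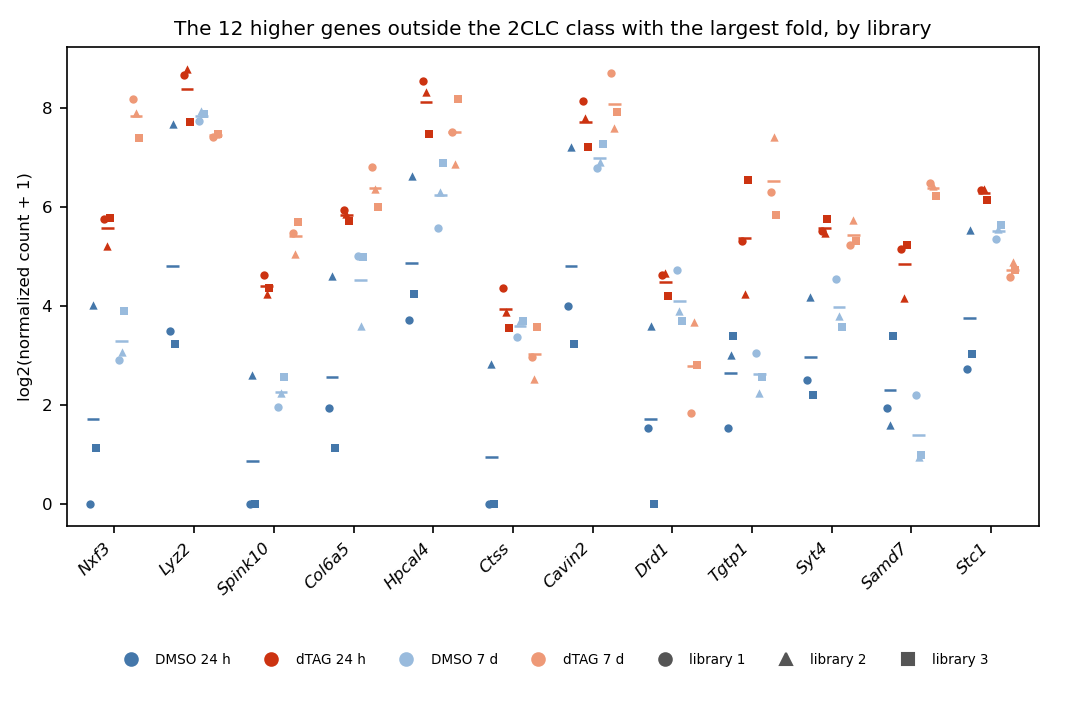
The 12 higher genes outside the 2CLC class with the largest change, as log2(normalized count + 1) in each of the 12 time course libraries; colours mark the group, symbols the library and short bars the group mean. In Lyz2, Cavin2, Ctss and Drd1 the DMSO 24 h libraries 1 and 3 lie below all other libraries of 24 h and DMSO library 2 lies near the DMSO 7 d libraries, while in Samd7 and Tgtp1 all 3 DMSO 24 h libraries lie below the dTAG 24 h libraries.

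The 103 lower genes changed by -1.0 to -2.44 (median -1.30), and 82 of them were protein coding. In 102 the groups of 24 h did not overlap (10.6% of all genes in this direction), which the choice by the same libraries largely fixes. In 66 every dTAG library lay below all 6 DMSO libraries (3.59% of all genes). The same choice fixes part of this. Of the 2027 genes whose 24 h groups did not overlap in this direction, 685 lay below all 6. Here too the DMSO library nearest to dTAG was library 2 in 83 of the 103. Their median was -0.99 against library 2 alone and -0.63 against the DMSO libraries of 7 d, with 101 of 103 still below 0. Their transcripts were rich in GC, with a median of 56.0% against 49.7% for all genes tested and 47.6% for the higher genes outside the 2CLC class. When a trend with GC content was removed from each library, 75 genes were called lower, 70 of them among the 103. At 7 d 37 of the 103 (35.9%) were called lower and 0 higher, where 3.68% of all genes were called lower, and 93 had the same direction.

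The largest fall was that of Gm10524, with 21.6, 6.06 and 16.7 counts with DMSO and 1.69, 1.05 and 2.16 with dTAG (-2.44, SE 0.52, adjusted p = 0.021). In 11 of the 12 largest falls DMSO library 2 was the one nearest to dTAG. Grin1, the obligatory subunit of NMDA receptors (chromosome 2, 25291181 to 25319187), had 861, 183 and 848 counts with DMSO and 126, 155 and 142 with dTAG. It fell by 1.86 (SE 0.45, adjusted p = 0.038), differed by -0.38 against library 2 alone (adjusted p = 0.74), and DMSO libraries 1 and 3 alone were far above the 164 to 184 of the DMSO libraries of 7 d. Exoc3l2, a relative of exocyst subunits, had 121, 39.4 and 291 counts against 31.3, 28.5 and 22.7 (-2.0, adjusted p = 0.047). Insl3, an insulin-like peptide of Leydig cells, had 72.3, 25.3 and 66.8 against 12.7, 15.8 and 16.2 (-1.68, adjusted p = 0.016). Smaller disagreement among the controls was seen for 1700034H15Rik (32.8, 22.2 and 44.1 against 6.77, 9.49 and 7.58, -1.89, SE 0.31, adjusted p = 0.005), for Lcat, an enzyme that esterifies plasma cholesterol (91.0, 61.6 and 95.4 against 16.1, 34.8 and 26.0, -1.69, adjusted p = 0.011), and for the chymotrypsin-like protease Ctrl (23.5, 30.3 and 41.7 against 7.61, 10.6 and 5.41, -1.89, adjusted p = 0.011). Lcat was called lower at 7 d as well (-1.0) and the other pair was not (-0.40 and -0.62). Ebf4, Crybb3, Sfi1, Gm13032 and Gm49745 completed the 12 largest falls, of which the last 3 were lower at 7 d too. Against library 2 alone Clasrp, a splicing regulator (241, 295 and 178 counts against 98.1, 108 and 98.5), was the single one of the 103 to keep its call (-1.53, adjusted p = 0.004). Against the DMSO libraries of 7 d these were Tnfrsf25 (-1.35) and Gm8909 (-1.13).

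**Figure D4:**
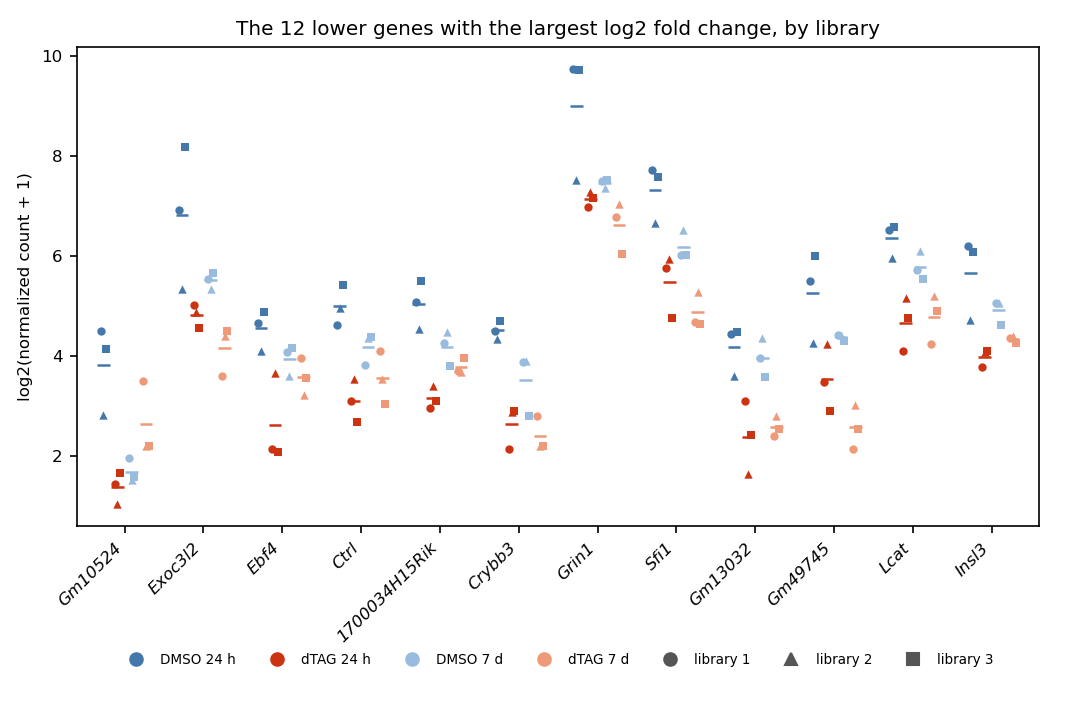
The 12 lower genes with the largest change, as log2(normalized count + 1) in each of the 12 time course libraries; colours mark the group, symbols the library and short bars the group mean. In all 12 the dTAG 24 h libraries lie below the DMSO 24 h libraries, and in Grin1 and Exoc3l2 DMSO library 2 lies near the DMSO 7 d libraries while libraries 1 and 3 lie above them.

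Among the genes that fell at both times, 6 with known roles in germ cells are described, of which all but Stag3 were picked after their values were seen. Ybx2, a cold-shock protein that binds mRNA in germ cells (chromosome 11, 69935796 to 69941605), had 642, 540 and 538 counts with DMSO and 254, 244 and 234 with dTAG at 24 h, and 387, 528 and 389 against 171, 173 and 114 at 7 d. It fell by 1.23 (SE 0.17, adjusted p = 0.002) and 1.51, and its 6 dTAG libraries lay below all 6 DMSO libraries. Stag3, the cohesin subunit of meiosis (chromosome 5, 138280240 to 138312393), had 1414, 844 and 1358 counts against 553, 612 and 556 at 24 h, a fall of 1.03 (SE 0.17, adjusted p = 0.005), and fell by 1.22 at 7 d. Library 2 was again the lowest control, and against it alone the difference was -0.56. Msh5, a mismatch repair homologue of meiotic crossovers, had 92.0, 78.8 and 85.8 counts against 30.5, 38.0 and 30.3 (-1.36, adjusted p = 0.010, and -1.86 at 7 d). Of 5 subunits of CatSper, the calcium channel of the sperm tail, that were tested 3 fell (0.54% of all genes did), while Catsper2 (-0.86, adjusted p = 0.18) and Catsperz (-0.40, adjusted p = 0.54) did not pass. Catsperg1 had 227, 154 and 175 counts against 66.8, 65.4 and 49.8 (-1.59, adjusted p = 0.003), Catsperg2 34.7, 32.3 and 34.6 against 11.8, 12.7 and 8.66 (-1.55, adjusted p = 0.033) and Catsperd 55.4, 66.7 and 56.0 against 23.7, 33.8 and 24.9 (-1.10, adjusted p = 0.050). All 3 were called lower at 7 d (-1.78, -1.62 and -2.02). Catsperg1 and Catsperg2 are near-identical neighbours on chromosome 7 whose reads may be split between them. In the list of 35 germline and meiosis genes tested only Stag3 fell and Rpl10l, a ribosomal protein of the testis, rose (1.15, and 2.67 at 7 d), with a list median of -0.15. At 7 d 5 of the 35 were lower and 1 higher, where 3.68% of all genes were called lower and 3.73% higher.

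Stag3 is the lower germline gene with the highest level, and its start region is shown because the E-box CACGTG, known as a site of MGA, a member of a complex that silences germline genes, occurs in it. The RefSeq promoter window of 300 bases (GRCm38.p6, chr5:138280259-138280558, plus strand) reads as follows, with the motif in capitals, beginning 170 bases before the RefSeq gene start.
Stag3: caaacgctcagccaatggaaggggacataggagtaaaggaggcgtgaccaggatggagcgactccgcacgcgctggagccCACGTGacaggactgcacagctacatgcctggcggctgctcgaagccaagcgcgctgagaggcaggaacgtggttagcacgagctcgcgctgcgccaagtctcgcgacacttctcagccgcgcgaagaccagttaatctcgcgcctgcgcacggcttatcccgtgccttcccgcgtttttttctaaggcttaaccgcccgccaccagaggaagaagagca
The motif reads the same on both strands. By GENCODE, Stag3 starts at 138280240, before this window, so by that start the motif lies inside the gene and not upstream of it. It was found in 6 of the 67 lower genes with a promoter window (8.96%), among them Grin1 and Catsperd, in 11.5% of 11582 genes tested and in 8.09% of 27025 windows of this length. The lower genes thus held it at about the share of all genes.

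Of the imprinted genes, 1 was called lower. Mirg, a maternally expressed noncoding RNA that hosts microRNAs (chromosome 12, 109729764 to 109749460), had 112, 111 and 101 counts with DMSO and 44.8, 39.0 and 68.2 with dTAG at 24 h. It fell by 1.12 (SE 0.21, adjusted p = 0.012), differed by -1.16 against library 2 alone (adjusted p = 0.16), and every dTAG library lay below all 6 DMSO libraries. At 7 d it had 86.3, 93.5 and 74.2 counts against 114, 101 and 79.5 (0.20, adjusted p = 0.57), and the difference of the effects passed (1.32, adjusted p = 0.040). Meg3, the long noncoding RNA at the start of the same domain (chromosome 12, 109541001 to 109571726), had 2876, 3398 and 1894 counts with DMSO and 1422, 1512 and 1196 with dTAG (-0.95, SE 0.24, adjusted p = 0.046), under the 2-fold threshold, -1.31 against library 2 alone (adjusted p = 0.082) and -0.10 at 7 d. Rian, between them, differed by -0.25 (adjusted p = 0.57). Zfp57, a zinc finger protein that protects methylation at imprinted regions, had 4010, 3890 and 2428 counts against 2078, 2400 and 1805, a difference of -0.69 that did not pass (adjusted p = 0.071). Among 35 imprinted genes tested 2 rose (Cdkn1c and Ascl2) and Mirg fell, with a median of 0.03. Of all genes 2.12% rose and 0.54% fell. Kcnq1ot1 (102, 187 and 52.4 against 71.9, 79.1 and 75.8, -0.40, adjusted p = 0.49) was the single imprinted gene called lower against library 2 alone (-1.30). Cdkn1c (104, 319 and 136 against 410, 331 and 479, 1.28) and Ascl2 (15.0, 49.5 and 22.6 against 75.3, 70.7 and 63.9, 1.40) had DMSO library 2 closest to dTAG, with 0.33 and 0.49 against it alone.

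Lists of pathway genes gave few calls. Of all genes tested, 2.12% were called higher and 0.54% lower at 24 h, with a median of 0.02. At 7 d these shares were 3.73% and 3.68%. Of 16 targets of the hypoxia response 1 rose, 0 fell, and 14 differed upwards, with a median of 0.44. Ndrg1, a stress gene of this response, had 200, 634 and 236 counts with DMSO and 1449, 1287 and 919 with dTAG. It rose by 1.94 (SE 0.34, adjusted p = 0.008), every dTAG library was above every DMSO library of both times, and the difference was 0.91 against library 2 alone. Ddit4, an inhibitor of mTORC1, had 2246, 3449 and 1545 counts against 4232, 5141 and 3704 (0.92, adjusted p = 0.047), and the mitophagy gene Bnip3 583, 1546 and 1254 against 1933, 1940 and 2068 (0.93, adjusted p = 0.090), both under the 2-fold threshold. At 7 d the median of the same 16 genes was -0.69, with 0 higher and 2 lower (Car9 and Ddit4). The effect at 7 d was below that at 24 h for Ndrg1, Ddit4, Bnip3, Ero1l and Slc16a3 in the test of the difference. The median of the list at 24 h was 0.34 against DMSO library 2 alone and 0.12 against the DMSO libraries of 7 d. Against the latter Ndrg1 differed by 0.64, Ddit4 by 0.16 and Bnip3 by 0.06. Glycolysis genes had 0 calls among 21 and a median of 0.16 at 24 h, and 3 lower ones (Aldoc, Eno2 and Hk1) with a median of -0.44 at 7 d.

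In cholesterol synthesis 21 of 22 genes differed upwards at 24 h (median 0.50), and 0 were called. Insig1, the sterol-regulated brake of the pathway, had 1534, 3111 and 1616 counts with DMSO and 3934, 3674 and 3729 with dTAG (0.93, adjusted p = 0.024), and Hmgcs1, its first committed enzyme after acetoacetyl-CoA, had 3661, 5906 and 3920 against 6502, 6101 and 5880 (0.49, adjusted p = 0.095). In both genes DMSO libraries 1 and 3 lay low and library 2 near the dTAG libraries. The median of the list was -0.01 against library 2 alone, 0.03 against the DMSO libraries of 7 d and -0.04 at 7 d. Among 16 genes of DNA methylation the de novo methyltransferase Dnmt3a rose (521, 1375 and 663 against 1937, 1631 and 1631, 1.15, adjusted p = 0.034), by 0.33 against library 2. Dnmt3b had 276, 1222 and 188 counts with DMSO and 1228, 924 and 1131 with dTAG (1.44, adjusted p = 0.097).

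Regulators of development were called singly, where 2.12% of all genes were called higher and 0.54% lower at 24 h. Dll1, a Notch ligand of the 2CLC class (148, 669 and 148 counts against 1238, 951 and 1032), rose by 2.12 at 24 h (adjusted p = 0.016) and was at -1.30 at 7 d, and its difference passed. Against library 2 alone Dll1 differed by 0.67, and against the DMSO libraries of 7 d by 0.60. With it the retinoic acid receptor Rarb made 2 of 26 genes of Notch, hedgehog and retinoic acid signalling (median 0.24). In the lists of neural development and neuronal signalling, with 21 and 22 genes tested, the genes that rose included Map2, Syt4 and the adhesion molecule Nrcam, and Grin1 fell. Of 19 trophoblast regulators Ascl2 and Gata2 rose while the list's median was -0.40, and that median was 0.39 against library 2 alone. Smooth muscle actin (Acta2) was the single feeder gene of 28 to rise at 24 h (52.5, 237 and 60.8 against 440, 378 and 297, 1.99, adjusted p = 0.020). At 7 d 9 of the 28 were called higher, where 3.73% of all genes were. Etv1 rose among 16 targets of FGF and ERK, Ifit2 among 26 interferon genes, Cdkn1c among 27 genes of apoptosis and cell cycle, and Dnmt3a among 17 formative and primed genes. Wnt6 fell among 19 genes of Wnt signalling (-1.41, adjusted p = 0.049). Against library 2 alone the differences were 0.46 for Map2, 1.40 for Syt4, 1.24 for Nrcam and 0.63 for Acta2. They were 0.31 for Etv1, 0.63 for Ifit2, 1.07 for Gata2 and -0.98 for Wnt6. No gene of the lists of naive pluripotency (21 tested, median -0.13), H3K9 methylation machinery (31, 0.06), primitive endoderm (18, 0.35), mesoderm and endoderm (16, 0.38), BMP and Nodal (23, 0.24), p53 (26, -0.08), the integrated stress response (27, 0.04), immediate early response (23, 0.02), protocadherins (16, 0.22) and replication histones (5, 0.12) was called by limma. The median of the immediate early list was 0.39 against library 2 alone and 0.43 against the DMSO libraries of 7 d. Other medians against library 2 alone were 0.09 for naive pluripotency, 0.02 for primitive endoderm and 0.14 for mesoderm and endoderm. Klf6, an immediate early factor, passed the p threshold at less than 2-fold (3833, 3227 and 4036 against 5943, 5780 and 6530, 0.72, adjusted p = 0.027) and was at 0.91 against library 2 alone.

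**Figure D5:**
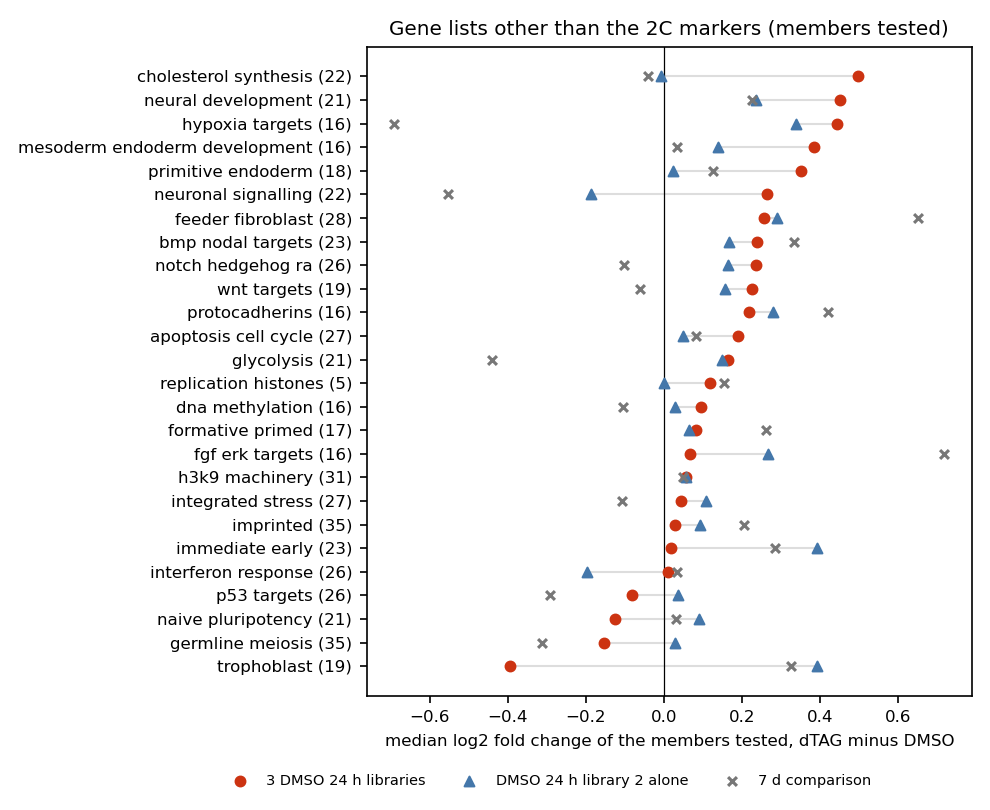
Median log2 fold change of dTAG over DMSO for the tested members of 26 gene lists, with the number tested in brackets: at 24 h with all 3 DMSO libraries (red circles), at 24 h with DMSO library 2 alone (blue triangles) and at 7 d (grey crosses). The circle and triangle of cholesterol synthesis lie at 0.50 and -0.01 and those of trophoblast at -0.40 and 0.39, while the hypoxia targets lie at 0.44 and 0.34 at 24 h and at -0.69 at 7 d.

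Among 778 repeat families tested 3 rose (0.386%) and 0 fell in limma, and edgeR and DESeq2 gave the same counts, while 25 were higher and 87 lower at an unadjusted p under 0.05. Repeat families are genome-wide sums over copies of transposons. MT2_Mm, the long terminal repeat of MERVL and promoter of many 2C transcripts, had 797, 1056 and 547 counts with DMSO and 4012, 2435 and 4259 with dTAG (2.16, SE 0.25, adjusted p = 1.2e-05), and 3.78 at 7 d. X7C_LINE, an ancient CR1 element, had 4.69, 8.08 and 3.58 against 31.3, 28.5 and 35.7 (2.40, SE 0.32, adjusted p = 6.6e-05), and 2.99 at 7 d. ERVB3_1-I_MM-int, an ERVK provirus, had 28.1, 26.3 and 11.9 against 55.8, 63.3 and 71.4 (1.56, SE 0.33, adjusted p = 0.027). At 7 d ERVB3_1-I_MM-int had 39.1, 16.7 and 22.8 counts against 36.8, 36.7 and 26.5 (0.41, adjusted p = 0.57), and the difference between the times did not pass (adjusted p = 0.45). In all 3 families the dTAG libraries of 24 h lay above all 6 DMSO libraries, and X7C_LINE and MT2_Mm kept their call against DMSO library 2 alone. That the 3 families lay above the DMSO libraries of 24 h is largely fixed by their choice on the same libraries. Of the 778 families 3.21% did so. MERVL-int, the body of MERVL, could not be resolved into libraries for dTAG. The authors' means were 5296 with DMSO and 28792 with dTAG.

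Most other repeat families were slightly lower with dTAG. Of the 778 families 579 differed downwards, with a median of -0.24, where the median of genes was 0.02. The main classes had medians of -0.39 for 28 SINE families (27 of them below 0), -0.30 for 138 DNA transposons, -0.24 for 469 LTR families and -0.13 for 126 LINE families, the last of which was 0.07 without DMSO library 2. The median was -0.45 against DMSO library 2 alone, -0.40 without DMSO library 3, -0.13 without library 2 and -0.15 against the DMSO libraries of 7 d, and it was -0.13 in the comparison at 7 d. Repeats took 4.90%, 5.36% and 3.75% of reads in the DMSO libraries and 4.72%, 5.03% and 4.57% in the dTAG libraries, so the groups overlapped. The dTAG libraries lay below all DMSO libraries of 24 h in 103 families (13.2%) and above them in 25 (3.21%). B1_Mm, the youngest B1 SINE family, had 5658, 5886 and 4274 counts against 3769, 4410 and 3385 (-0.45, adjusted p = 0.33). RLTR16C_MM, an ERVK terminal repeat, had 58.2, 47.5 and 48.9 against 25.4, 12.7 and 30.3 (-1.22, adjusted p = 0.13), the lower family with the smallest p. Families known as targets of other silencing pathways did not pass, among them IAPEz-int (12533, 14182 and 17296 against 14123, 15784 and 14095, 0.01, adjusted p = 0.98) and the major satellite GSAT_MM (12.2, 20.2 and 4.77 against 13.5, 6.33 and 17.3, 0.09, adjusted p = 0.91). At 7 d, where 2.7% of families were called higher and 1.16% lower, GSAT_MM was called (2.04). MERVL_2A-int, which had 543, 731 and 526 counts against 998, 901 and 922, did not pass at 24 h (0.66, adjusted p = 0.18) and was called at 7 d (1.65).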

How the data were processed

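RNA-seq reads of the time course were trimmed with Trim Galore 0.6.7 and aligned with STAR 2.7.10 to mm10 by the authors, per the submitters' processing notes, without spliced alignments and with reads that fit many places put at a single one at random. Genes of GENCODE and repeat families were counted with TEcounts at its defaults. The deposited signal columns of the time course and of the sorted cells are the authors' group means of counts divided by DESeq2 1.34.0 size factors that took both genes and repeats into account. The authors' comparison tables (log2 fold changes, p-values and gene classes) were not used.

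From each mean of 3 libraries the whole read counts were solved exactly: all 120831 nonzero means up to 10000 had 1 solution, as did 479 of 607 between 10000 and 60000. The size factors recomputed from the solved counts differed by at most 0.0487%. The columns do not name clones, so libraries were numbered by size factor. The procedure was checked on 4 groups of the series deposited per library, where 100% of genes were solved correctly. limma 3.58.1 with a trend (R 4.3.3) was fitted to log2(normalized count + 1) of 12 libraries in 4 groups (pseudocount 1), for genes with at least 10 reads in at least 3 libraries, with Benjamini-Hochberg adjustment over genes (19077 of 55401) and over repeats (778 of 1146) apart. Another 66 genes and 11 repeats could not be solved in a group. The libraries of a group are clones of 1 line with 1 library each, so the spread behind the p-values mixes clone, culture and library. The same clones are in both arms, and this pairing could not be used. Libraries of the 24 h comparison with 19077 genes were simulated at 1 fixed dispersion of 0.05, without library or clone effects. In them 39% of genes changed 2-fold and 95% of those changed 4-fold were called, with 3 false calls. These values need not hold for the real libraries, whose DMSO 24 h group disagreed. Positions and GC content came from GENCODE vM21 on the same genome build. edgeR 4.0.16, DESeq2 1.42.0, other scalings, filters, pseudocounts and sets of libraries were alternatives. Named genes were the 12 largest changes of lower genes and of higher genes outside the 2CLC class, the 4 largest within it, the 6 highest and 6 lowest pseudogenes (all with a mean of at least 10 in the higher group), called members of the lists, up to 4 members of each list by level, called repeats, Ehmt1 and Ehmt2; other names were picked after their values were seen. The comparison, the gene lists and their members were chosen with earlier results of these data known. Some called genes are not reported here by name.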

Additional observations from a re-analysis of the deposited data

Results flagged for a closer look

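For some genes the effect of dTAG differed between the times, tested in limma as the log2 effect at 7 d minus that at 24 h. Among hypoxia targets Ndrg1 went from 1.94 to -0.92 (difference -2.86, adjusted p = 0.016), Ddit4 from 0.92 to -1.22 (-2.14, adjusted p = 0.011), Bnip3 from 0.93 to -0.84 (-1.76, adjusted p = 0.043), Ero1l from 0.42 to -0.72 (-1.15, adjusted p = 0.012) and Slc16a3 from 0.40 to -0.50 (-0.90, adjusted p = 0.026). The Notch ligand Dll1 went from 2.12 to -1.30 (-3.42, adjusted p = 0.018), Ascl2 from 1.40 to -1.40 (-2.81, adjusted p = 0.018), Stc1 from 2.52 to -0.79 (-3.30, adjusted p = 0.038) and Nrcam from 2.05 to -0.56 (-2.60, adjusted p = 0.036). In the other direction Mirg went from -1.12 to 0.20 (1.32, adjusted p = 0.040), Gm10524 from -2.44 to 0.95 (3.39, adjusted p = 0.036), the keratin Krt18 from -0.77 to 1.41 (2.18, adjusted p = 0.042), the pluripotency-associated Dppa4 from -0.30 to 0.57 (0.87, adjusted p = 0.037) and Rpl10l from 1.15 to 2.67 (1.52, adjusted p = 0.048). Without DMSO 24 h libraries 1 and 3 the number of all genes that passed this test went from 505 to 68.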

How the results depend on the processing

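The number of higher genes, 405, was 102 with the 6 libraries of 24 h alone, 1140 with array weights (whose estimate did not fully converge), 181 at an adjusted p under 0.01, 97 without DMSO libraries 1 and 3, 231 against the DMSO libraries of 7 d, and 163 to 1014 with a library left out (245 without DMSO library 1, 1014 without DMSO library 2, 163 without dTAG library 1, 225 without dTAG library 3). The 103 lower genes were 10, 658, 18, 5 and 3 under the same settings, 190 with DESeq2 and 12 to 391 with a library left out (12 without DMSO library 1, 391 without 2, 47 without 3; 17 without dTAG library 1, 46 without 3). Within the 2CLC class 258 became 87 with 6 libraries, 153 at 0.01, 80 with DMSO library 2 alone and 138 to 342 with a library left out. Outside it 147 became 15, 769 with array weights, 28, 17, 41 against 7 d and 25 to 672. Higher repeat families (3) were 8 with array weights and 2 to 12 with a library left out, and lower ones (0) 29, 3 when adjusted together with genes, and 0 to 3. The 505 genes whose effect differed between the times were 333 with no filter, 5156 with array weights, 1 at 0.01, 68 without DMSO libraries 1 and 3 and 45 to 2132 with a library left out. Between DMSO at 7 d and 24 h 0 genes were called by limma, 937 with array weights and 0 to 863 with a library left out. edgeR called 365 higher and 135 lower genes. Among named features Gm11914 (-0.0061) and Ascl2 (-0.10) reversed against the DMSO libraries of 7 d. edgeR, DESeq2, the GC trend, both DMSO libraries left out and the 7 d controls were chosen after the data were seen. The causes were not tested. No paired analysis was possible because the columns hold means of 3 clones and the solved libraries carry no clone name. At this depth 39% of 2-fold changes simulated without library or clone effects were called, so smaller changes can be missed.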

Other observations

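Genes of the Rhox cluster on the X chromosome differed among the DMSO libraries of 24 h. Rhox6 had 126, 32.3 and 391 normalized counts with DMSO and 18.6, 22.2 and 76.8 with dTAG at 24 h, and 68.9, 23.1 and 20.8 against 266.8, 310.6 and 369.8 at 7 d. Rhox9 had 77.9, 15.2 and 273 counts against 22.8, 26.4 and 63.9 at 24 h, and 54.4, 18.5 and 10.9 against 156, 207 and 278 at 7 d. The heat shock gene Hspa1a had 984, 205 and 850 counts with DMSO and 208, 157 and 173 with dTAG at 24 h, where the DMSO libraries of 7 d had 130 to 153. These genes were picked after their values were seen.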
